A study of Mus musculus with 6 samples.

Results

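A set of 10 genes that write, maintain or erase DNA methylation, or that make the cofactor of the erasers, was followed in the L-GMP fraction of mouse acute myeloid leukaemia (AML) with and without Prmt6. They were the methyltransferases Dnmt1, Dnmt3a and Dnmt3b, the maintenance factor Uhrf1 and its relative Uhrf2, the 5-methylcytosine oxidases Tet1, Tet2 and Tet3, and the isocitrate dehydrogenases Idh1 and Idh2. Members were taken by symbol, and all 10 were among the 30037 named genes of the deposited expression table. L-GMP cells are leukaemia cells with the surface profile of granulocyte-macrophage progenitors, and they were sorted from the bone marrow of AML mice 8 to 10 weeks old. The WT group (n = 3 libraries) had leukaemia with intact Prmt6, and the Prmt6-/- group (n = 3 libraries) had leukaemia lacking it, so every library came from leukaemic cells and none from healthy marrow. The oncogene that drove the leukaemia, the strain, the sex and whether a library came from 1 animal or a pool are not given in the sources used here. P-values therefore measure the spread between these libraries, which may be technical.

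In mammals, DNMT3A and DNMT3B place methyl groups on unmethylated CpG sites, and DNMT1 copies the pattern to the new strand after replication. UHRF1 brings DNMT1 to hemimethylated DNA and also reads the tail of histone H3. PRMT6 methylates an arginine of that tail that UHRF1 binds when it is unmodified, which is the link between Prmt6 and this gene group. TET enzymes oxidize 5-methylcytosine and need 2-oxoglutarate, which IDH1 makes in the cytosol and IDH2 in mitochondria. DNMT3A, TET2, IDH1 and IDH2 are recurrently mutated in human AML. The deposited values hold no DNA methylation and no sequence variants, so only transcript levels are described.

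Of these genes 3 differed between the genotypes. Idh2 and Dnmt3a fell in Prmt6-/- cells, by 1.04 (SE 0.0827) and 0.73 (SE 0.0713) on the deposited log2 scale, and Dnmt3b rose by 0.29 (SE 0.0738). Turned to linear values from this scale, Idh2 stood 51.4% and Dnmt3a 39.5% below WT, and Dnmt3b stood 22.6% above it. These percentages depend on the scale. The authors' deposited fold changes were larger in size, at -1.18 log2 units for Idh2, -0.93 for Dnmt3a and 0.44 for Dnmt3b. The other 7 genes, among them Dnmt1, Uhrf1 and all TET genes, did not pass the test. Values were compared with limma on the log2 values as deposited, and a gene passed at a Benjamini-Hochberg adjusted p under 0.05 over all 15454 genes tested. Of all genes tested, 33.0% passed, 15.0% as higher and 18.0% as lower. The share among these genes, 3 of 10, was thus close to the background. That background includes genes of low level, whereas all of the 10 but Tet1 lay at percentile 55.3 or above of the tested genes by mean. A share among genes of similar level was not computed, here or for the lists below. In the authors' deposited table, too, 3 of the 10 had an adjusted p under 0.05, where 21.7% of all 22105 genes not listed at 0 throughout and 31.0% of the genes tested here did. The effects of Idh2 and Dnmt3a lay towards the extreme of the table, since 1.71% and 4.30% of tested genes had a difference of at least their size in either direction, against 21.0% for Dnmt3b. Low genes differ less on the scale of the library values than in the authors' deposited fold changes: Wt1 differed by 0.98 on the first and by 4.23 on the second.

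**Figure D1:**
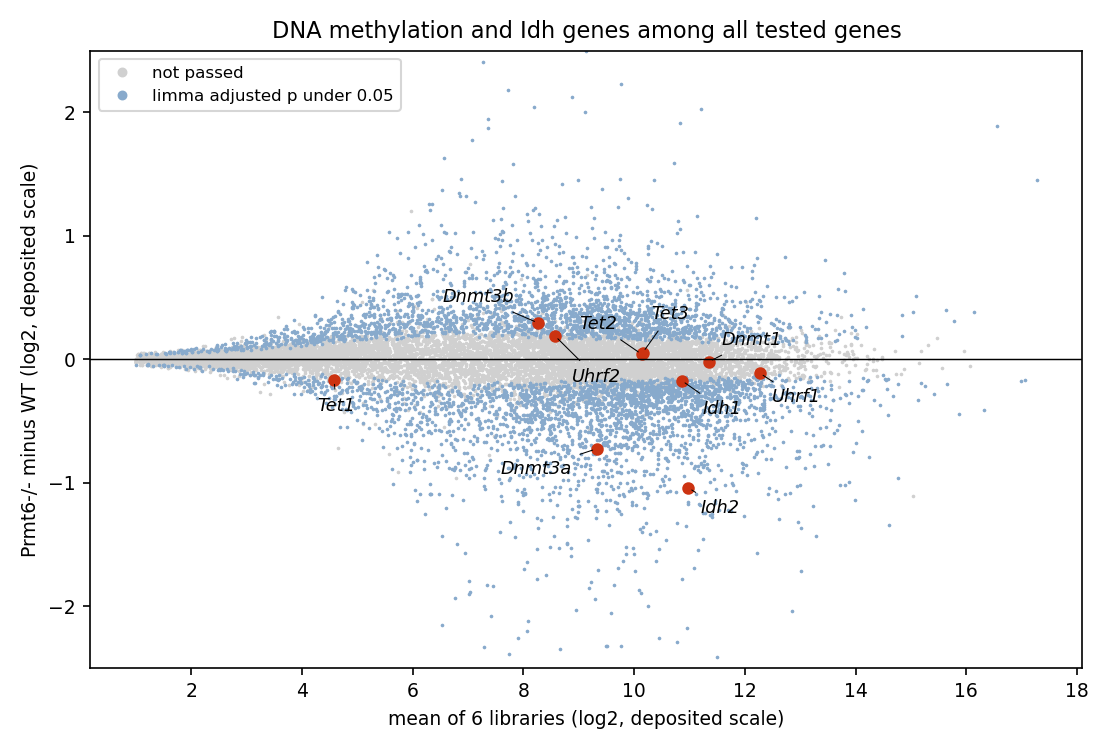
Difference between genotypes (Prmt6-/- minus WT, log2, vertical axis) against the mean of the 6 libraries (log2, horizontal axis) for the tested genes, with the 10 DNA methylation and Idh genes in red; 11 genes beyond 2.5 log2 units are not drawn. Idh2 and Dnmt3a lie below most genes of similar level, and the cloud narrows towards low levels on the left.

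The labels were first checked on the targeted gene. Prmt6 (ENSMUSG00000049300.11, chromosome 3, 110246109 to 110250998, GRCm38) had deposited log2 values of 7.82, 7.60 and 7.41 in WT libraries 1 to 3 and of 5.42, 5.46 and 5.48 in Prmt6-/- libraries 1 to 3. Every Prmt6-/- library was below every WT library, although the antisense gene C130013H08Rik overlaps a Prmt6 exon and the strand setting of the counting is not given. The difference was -2.16 on this scale, whereas the authors' deposited table lists -7.66 log2 units for Prmt6. The library values alone therefore do not tell how much Prmt6 RNA remained. The cell fraction was checked on markers. Kit, Cd34, Fcgr3, Mpo, Elane and the other progenitor markers were all above the low-value filter, with Kit at 9.66 or more in every library. Of these 12 markers 2 rose (Elane and Ctsg) and 3 fell (Fcgr2b, Ptprc and Spi1), with a median difference of -0.13. The log2 of their summed linear level was 17.73 to 18.13 in WT and 18.48 to 18.64 in Prmt6-/-. Elane, the highest of them at 16.56 in WT and 18.01 in Prmt6-/-, weighs most in this sum, which therefore does not describe the 12 as a group. The stem-cell marker Ly6a and the lymphoid marker Il7r lay between 2.58 and 4.09. Monocyte and macrophage markers moved with the genotype: 3 of 5 tested genes fell (Csf1r, Cd68 and Irf8), none was at 0, Adgre1 was not matched by symbol, and the log2 of the summed linear level was 12.40 to 12.41 in WT and 11.17 to 11.56 in Prmt6-/-. Mature neutrophil markers moved both ways, with 2 of 8 higher and 2 lower, none at 0 and summed linear levels of 3235 to 3567 in WT and 2424 to 4090 in Prmt6-/-. Among the B cell markers Cd79b fell, from 9.56 to 8.42, none was at 0, Pax5 was below the filter, and the log2 sums were 9.54 to 9.68 against 8.32 to 8.69. The T cell, erythroid and megakaryocyte log2 sums lay between 5.59 and 6.24, with Trac at 0, and Cd3d and Klf1 were the markers of these lists that passed, both higher. Of the tested progenitor, monocyte and neutrophil markers 41.7%, 60% and 50% passed, against 33.0% of all tested genes. For B cell, T cell, erythroid and megakaryocyte markers the shares were 33.3%, 25%, 20% and 0%. In sorted bulk RNA, fewer cells of a type and less RNA per cell cannot be told apart. The part of these markers in the results below was not tested.

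The upstream DNA of the 3 genes that passed is shown because their products write methyl groups on CpG sites or feed the enzymes that remove them. The windows hold the 250 bases before RefSeq start sites on GRCm38.p6, 5′ to 3′ on the gene's strand, with every CpG in capitals. Dnmt3a has separate starts for its long and short coding transcripts, about which the gene-level value says nothing. The window at chr12:3806730-3806979 (plus strand) lies before an upstream RefSeq start. No transcript start of the GENCODE basic set was found within 20 bases of that start, and the full set was not searched. A further window, chr12:3806910-3807159, lies before Dnmt3a-218, holds 40 CpGs and is not shown. The window at chr12:3891494-3891743 (plus strand) lies before the start of the shorter transcripts Dnmt3a-203 and Dnmt3a-205. The Dnmt3b window is chr2:153649199-153649448 (plus strand) and the Idh2 window is chr7:80115351-80115600 (minus strand).
Dnmt3a, upstream start: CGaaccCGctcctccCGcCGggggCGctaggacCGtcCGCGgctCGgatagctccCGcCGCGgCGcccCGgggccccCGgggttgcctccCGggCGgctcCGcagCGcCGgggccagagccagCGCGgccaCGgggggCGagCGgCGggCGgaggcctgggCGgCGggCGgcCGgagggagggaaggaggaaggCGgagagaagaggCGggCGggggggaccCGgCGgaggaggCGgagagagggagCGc
Dnmt3a, internal start: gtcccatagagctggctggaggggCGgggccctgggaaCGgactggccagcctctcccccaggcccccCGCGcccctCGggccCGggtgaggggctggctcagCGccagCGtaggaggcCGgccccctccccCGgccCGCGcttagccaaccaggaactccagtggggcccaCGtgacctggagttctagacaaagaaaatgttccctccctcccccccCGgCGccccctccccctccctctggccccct
Dnmt3b: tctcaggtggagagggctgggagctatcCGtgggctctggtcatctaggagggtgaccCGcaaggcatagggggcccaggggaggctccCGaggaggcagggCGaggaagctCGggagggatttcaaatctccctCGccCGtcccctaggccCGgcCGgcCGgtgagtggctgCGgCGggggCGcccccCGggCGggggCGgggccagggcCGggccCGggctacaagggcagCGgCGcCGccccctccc
Idh2: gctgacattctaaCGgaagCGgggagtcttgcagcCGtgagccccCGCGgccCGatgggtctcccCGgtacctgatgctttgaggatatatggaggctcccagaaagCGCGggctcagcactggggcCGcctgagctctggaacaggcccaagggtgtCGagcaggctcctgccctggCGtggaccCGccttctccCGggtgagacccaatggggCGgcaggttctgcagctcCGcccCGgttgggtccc
These windows hold 38, 15, 21 and 17 CpGs in that order, against a median of 6 over 32851 RefSeq windows of the same length. The GC box (GGGCGG on either strand) was found 5 times, 1 time, 3 times and 2 times in the same order, and 32.7% of all windows hold at least 1. Over all 16 windows of the 10 genes, 14 had a GC box. None of the 16 held the E2F words TTTCCCGC or TTTGGCGC or the ETS word CCGGAAGT on either strand, which occur in 0.895%, 0.417% and 2.88% of all windows. All 4 windows, of genes that fell and of the gene that rose, thus held more CpGs than the median window. This was not particular to them. Windows of the 7 genes that did not pass held 7 to 51 CpGs, except 1 window of Dnmt1 with 2.

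Among the de novo enzymes, Dnmt3a (ENSMUSG00000020661.15, chromosome 12, 3806007 to 3914443, plus strand) had deposited log2 values of 9.65, 9.70 and 9.70 in WT and of 8.92, 8.86 and 9.09 in Prmt6-/-. The WT libraries lay close together, and every Prmt6-/- library was below all of them. The means were 9.68 ± 0.03 (SD, n = 3) and 8.96 ± 0.12, and the linear ratio was 0.605 (95% interval 0.541 to 0.677, limma adjusted p = 0.000117). The authors' deposited table lists -0.93 log2 units (adjusted p = 2.99e-14).

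Dnmt3b (ENSMUSG00000027478.15, chromosome 2, 153649450 to 153687730, plus strand), the other de novo enzyme, moved in the opposite direction. Its values were 8.23, 8.15 and 7.99 in WT and 8.44, 8.40 and 8.40 in Prmt6-/-. All Prmt6-/- libraries were above all WT libraries, and here the spread was wider in WT (8.12 ± 0.12, SD, n = 3) than in Prmt6-/- (8.41 ± 0.03). The linear ratio was 1.23 (95% interval 1.09 to 1.38, limma adjusted p = 0.0144), and the authors' deposited table lists 0.44 log2 units (adjusted p = 0.0142). An antisense gene, Dnmt3bos, overlaps an exon, and since the strand setting of the counting is not given, its reads cannot be told apart from those of Dnmt3b there.

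The balance of the de novo enzymes differed between the genotypes in every library. Dnmt3a minus Dnmt3b was 1.43, 1.55 and 1.71 log2 units in WT and 0.48, 0.46 and 0.69 in Prmt6-/-, a change of -1.02. Transcript length cancels in this change only if each gene used the same transcripts in both genotypes, which was not tested. The groups did not overlap, and an exact two-sided permutation over the 6 libraries gave p = 0.1, the smallest that 3 against 3 allows, and 0.175 after adjustment over the 7 pairs of genes compared in this way. Another relative, Dnmt3l, which lacks catalytic activity and stimulates the de novo enzymes, fell by 0.39 (SE 0.0937, limma adjusted p = 0.0112). Its values were 9.36, 9.31 and 9.57 in WT and 9.14, 8.86 and 9.06 in Prmt6-/-. Trdmt1, a relative that methylates transfer RNA, stood at 8.05 ± 0.03 and 8.04 ± 0.05 (SD, n = 3) and did not pass.

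**Figure D2:**
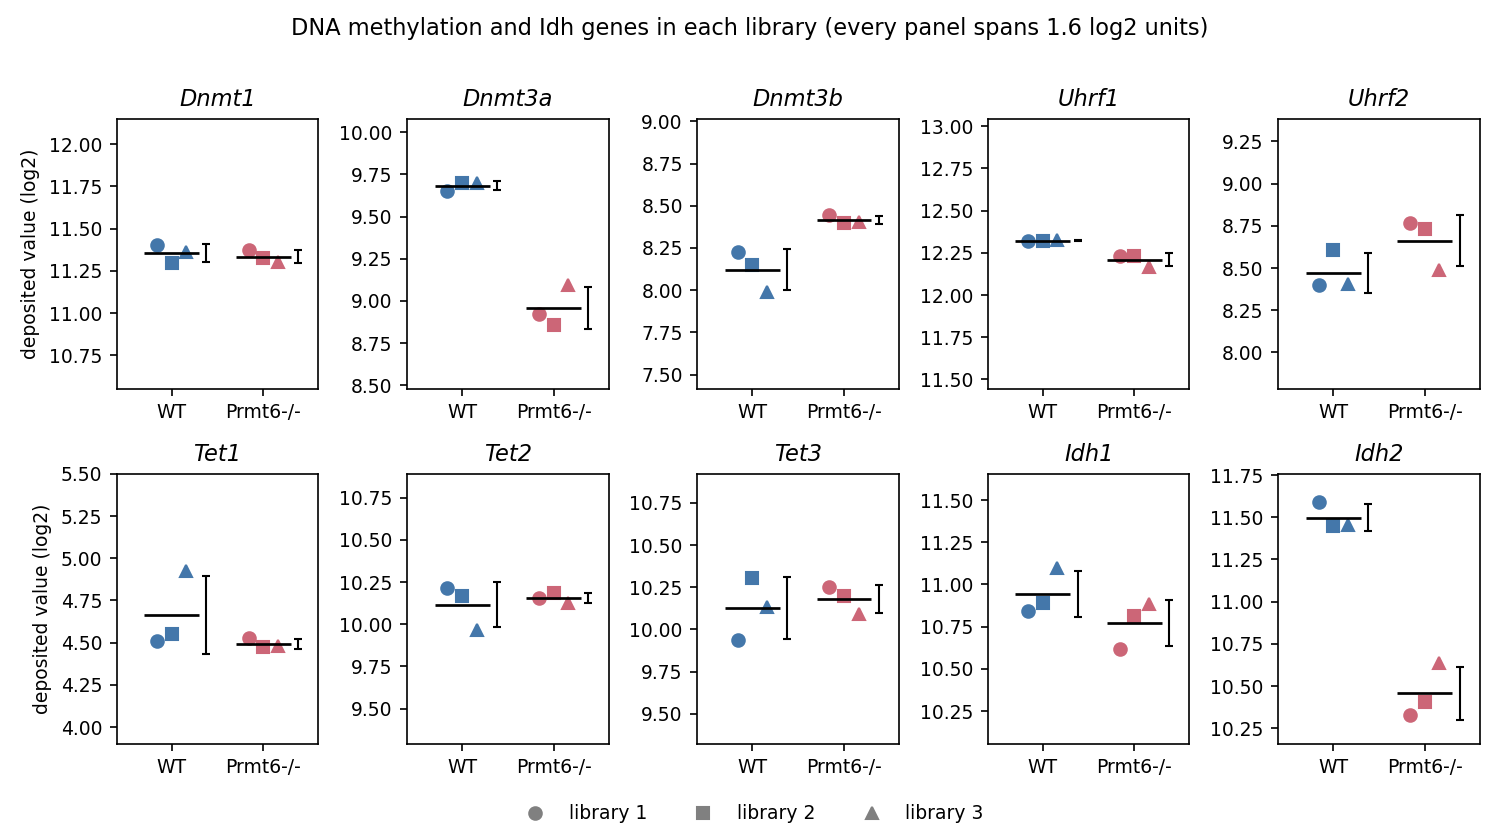
Deposited log2 values (vertical axis) of the 10 genes in the 3 WT (blue) and 3 Prmt6-/- (red) libraries, with the group mean as a line and the SD as a bar; every panel spans the same range. The groups are apart for Dnmt3a, Dnmt3b, Uhrf1 and Idh2, and the third WT library stands alone for Tet1.

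Among the maintenance genes, Dnmt1, Uhrf1 and Uhrf2 did not pass. Dnmt1 (ENSMUSG00000004099.16, chromosome 9, 20907209 to 20959888, minus strand) had values of 11.41, 11.30 and 11.36 in WT and of 11.38, 11.32 and 11.30 in Prmt6-/-. The groups overlapped, and the difference of -0.02 had a 95% interval of -0.138 to 0.097 (limma adjusted p = 0.794), which on this scale holds the linear ratio between 0.909 and 1.07. Its sign turned under both other scalings and without WT library 1, where it was 0.0049. Uhrf1 (ENSMUSG00000001228.14, chromosome 17, 56303321 to 56323486, plus strand), the member tied to PRMT6 through histone H3, had values of 12.32, 12.32 and 12.33 in WT and of 12.23, 12.23 and 12.16 in Prmt6-/-. Here the groups were apart. Uhrf1 missed the threshold (difference -0.11, 95% interval -0.212 to -0.011, linear ratio 0.926, limma adjusted p = 0.0864). It passed in limma without the mean-variance trend (adjusted p = 0.0435) and shrank to -0.007 after quantile normalization (adjusted p = 0.927). The authors' deposited table lists -0.12 log2 units for Uhrf1 (adjusted p = 0.0929).

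Uhrf2 (ENSMUSG00000024817.13, chromosome 19, 30030513 to 30093722, plus strand), a relative with similar domains that does not replace UHRF1 in maintenance, had values of 8.40, 8.61 and 8.41 in WT and of 8.77, 8.73 and 8.49 in Prmt6-/-. The groups overlapped through the third Prmt6-/- library, and Uhrf2 missed the threshold (difference 0.19, 95% interval -0.019 to 0.399, limma adjusted p = 0.150). Without that library it was 0.28 and passed (adjusted p = 0.0449). Uhrf1 minus Uhrf2 was 3.92, 3.71 and 3.92 in WT and 3.47, 3.50 and 3.67 in Prmt6-/-, a change of -0.30 with groups apart (exact permutation p = 0.1, 0.175 adjusted over the pairs). Dnmt1 minus Uhrf1 changed by 0.09, with the same p-values. Groups without overlap were found for 4 of these 10 genes and for 47.4% of all tested genes. They were 3 with Prmt6-/- below WT, against 24.4% of tested genes, and 1 with Prmt6-/- above, against 23.0%.

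The TET genes did not separate the genotypes. Tet2 (ENSMUSG00000040943.12, chromosome 3, 133463679 to 133545139, minus strand) had values of 10.22, 10.16 and 9.97 in WT and of 10.15, 10.19 and 10.13 in Prmt6-/-. It lies on the chromosome of Prmt6, 23.2 Mb away. Its difference of 0.04 had a 95% interval of -0.122 to 0.203 (limma adjusted p = 0.703) and turned to -0.03 without WT library 3. Tet3 (ENSMUSG00000034832.15, chromosome 6, 83362373 to 83459084, minus strand) had values of 9.94, 10.31 and 10.13 in WT and of 10.25, 10.20 and 10.09 in Prmt6-/-. The WT libraries bracketed the Prmt6-/- libraries, the difference was 0.05 (95% interval -0.156 to 0.262, limma adjusted p = 0.699), and it was -0.04 without WT library 1.

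Tet1 (ENSMUSG00000047146.17, chromosome 10, 62804570 to 62908996, minus strand) was the lowest of the 10 genes, at percentile 27.8 of the tested genes by its mean. Its values were 4.51, 4.55 and 4.93 in WT and 4.53, 4.48 and 4.48 in Prmt6-/-. WT library 3 stood above the other 5 libraries, and the difference of -0.17 (95% interval -0.392 to 0.053, limma adjusted p = 0.225) was -0.04 without it. The authors' deposited table lists -1.23 log2 units (adjusted p = 0.118). None of the within-library differences between TET genes kept the groups apart, with exact permutation p = 0.4 for Tet1 minus Tet2, 0.4 for Tet1 minus Tet3 and 1 for Tet2 minus Tet3.

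Idh2 (ENSMUSG00000030541.16, chromosome 7, 80094846 to 80115392, minus strand), the mitochondrial NADP-dependent enzyme, had the largest difference of the 10 genes on the scale of the library values, whereas in the authors' deposited fold changes Tet1 (-1.23, not passed) exceeded Idh2 (-1.18). Its deposited log2 values were 11.59, 11.45 and 11.45 in WT and 10.33, 10.41 and 10.63 in Prmt6-/-. The lowest WT library was above the highest Prmt6-/- library by more than the whole range within either group. The means were 11.50 ± 0.08 (SD, n = 3) and 10.46 ± 0.16, and the linear ratio was 0.486 (95% interval 0.427 to 0.553, limma adjusted p = 4.24e-05). The authors' deposited table lists -1.18 log2 units (adjusted p = 2.75e-29). Idh1 (ENSMUSG00000025950.16, chromosome 1, 65158616 to 65186500, minus strand), the cytosolic enzyme, had values of 10.84, 10.89 and 11.10 in WT and of 10.62, 10.81 and 10.88 in Prmt6-/-. These groups overlapped, and Idh1 missed the threshold (difference -0.17, 95% interval -0.371 to 0.027, limma adjusted p = 0.170).

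The difference between the isocitrate dehydrogenases differed between the genotypes in every library. Idh1 minus Idh2 was -0.75, -0.56 and -0.36 in WT and 0.29, 0.41 and 0.25 in Prmt6-/-, a change of 0.87 with groups apart (exact permutation p = 0.1, 0.175 adjusted over the pairs). Per length, taken as the deposited log2 value less the log2 of the kilobases of the longest coding transcript, Idh2 had the highest WT level (10.69 ± 0.08, SD, n = 3), followed by Uhrf1 (10.48 ± 0.003), Idh1 (9.74 ± 0.13) and Dnmt1 (8.80 ± 0.05). Tet2, Tet3 and Uhrf2 came next, at 6.92, 6.68 and 6.65, and Tet3 and Uhrf2 did not differ beyond their SDs of 0.18 and 0.12. Dnmt3a at 6.41 and Dnmt3b at 6.01 followed, with Tet1 last at 0.82. In Prmt6-/- cells Idh2 stood at 9.65 ± 0.16 per length, level within its SD with Idh1 at 9.57 ± 0.14 and below Uhrf1 at 10.37 ± 0.04. Dnmt3b stood at 6.30 and Dnmt3a at 5.68. The Dnmt3a levels use its 9685-base transcript and would be higher with its coding transcripts of 5424 or 2328 bases, so the place of Dnmt3a in either order is not settled by these values. Likewise, Tet3 uses its 10904-base transcript and would be higher with its coding transcript of 5944 bases. The order of Tet2, Tet3 and Uhrf2 is therefore not settled either. The Idh2 levels use its 1745-base transcript and would be higher with its coding transcript of 392 bases. The place of Idh2 beside Idh1 and Uhrf1 in Prmt6-/- cells is thus not settled.

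**Figure D3:**
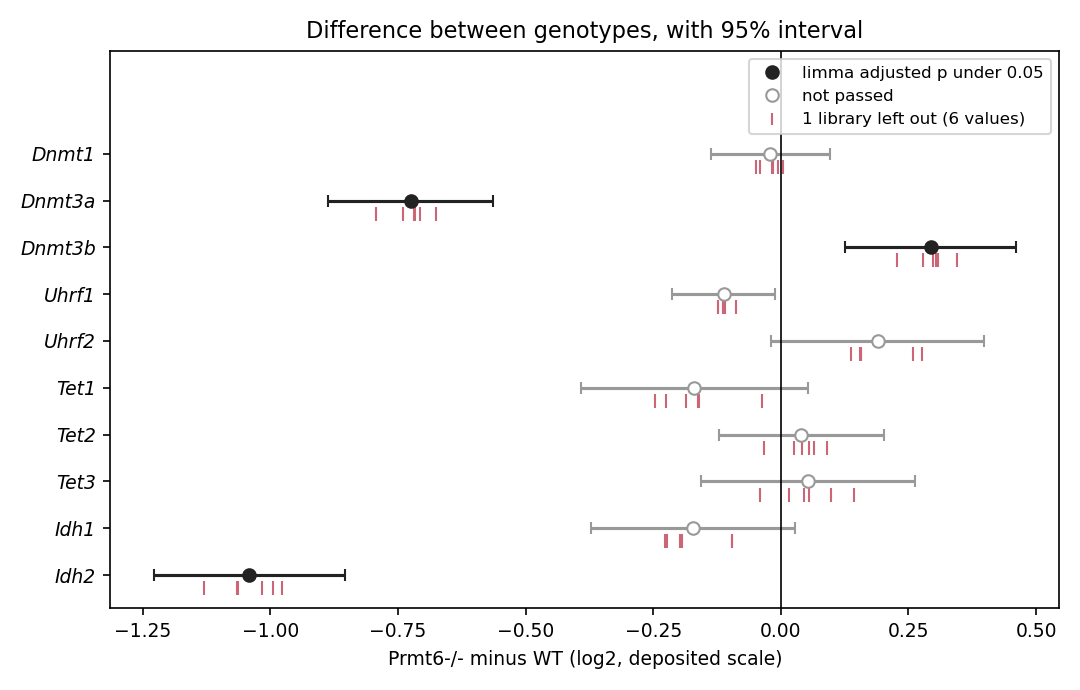
Difference between genotypes (Prmt6-/- minus WT, log2, horizontal axis) of the 10 genes with limma's 95% interval; filled points passed at an adjusted p under 0.05, and red ticks give the difference with 1 library left out. Idh2 and Dnmt3a stay between -1.13 and -0.68 whichever library is left out, and Dnmt3b between 0.23 and 0.35.

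Partners of maintenance methylation split in direction. Of 10 genes 3 rose and 3 fell, with a median of 0.00 against 0.01 over all tested genes. The share that passed was 60%, against 33.0% of all tested genes. Cdca7, which works with the remodeller HELLS in DNA methylation, fell by 0.60 (SE 0.0753, limma adjusted p = 0.000397), from 11.47, 11.40 and 11.47 to 10.75, 10.77 and 11.02. Hells itself rose by 0.31, from 10.04 ± 0.09 to 10.36 ± 0.06 (SD, n = 3). The histone H3 methyltransferase Ehmt2 fell by 0.49 and the deacetylase Hdac1 by 0.25. The other genes that rose were the deubiquitinase Usp7, a partner of DNMT1 and UHRF1, and the methyltransferase Setdb1. Without WT library 3 or Prmt6-/- library 2 only 1 gene of the list rose, since Usp7 (adjusted p = 0.0574 and 0.0678) and Setdb1 (0.0620 and 0.0884) no longer passed. Usp7 was also lost without Prmt6-/- library 3 (0.0585), and Setdb1 without WT library 2 (0.0800). The replication clamp Pcna, at 12.31 and 12.38, and the ligase Lig1, at 11.31 and 11.21, did not pass.

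Cell cycle genes were measured beside these, because Dnmt1 and Uhrf1 are expressed most in S phase. Of 15 S phase genes 1 rose and 2 fell, with a median of -0.04. Of 15 genes of G2 and mitosis 0 rose and 13 fell, with a median of -0.46. The shares that passed were 20% and 86.7%, against 33.0% of all tested genes. The G2 and mitosis list had 10 to 13 lower genes in the refits. It had 10 after quantile normalization, where Ccnb2 (adjusted p = 0.148), Ccna2 (0.118) and Birc5 (0.352) no longer passed. Ube2c fell by 0.86, the spindle protein Nusap1 by 1.53 and the cyclin Ccnb1 by 0.71, whereas Mki67 stood at 10.71 and 10.86 and did not pass. The regulator E2f1 fell by 0.50, whereas Rrm2 rose by 0.27, a call lost without Prmt6-/- library 2 (adjusted p = 0.0608) or 3 (0.0523). Mcm7 fell by 0.17 and was lost without Prmt6-/- library 2 (0.0605), after quantile normalization (-0.085, adjusted p = 0.205) and after cyclic loess centring (-0.10, 0.118). The S phase list had 0 higher genes without Prmt6-/- library 3. The part of the cell cycle in the values of Uhrf1 and Dnmt1 was not tested.

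Of 8 methyl-CpG readers 2 rose and 0 fell, and the median of the list was 0.00. Mbd3 rose by 0.25 and Mbd4, a reader that also removes mismatched thymine, by 0.20. The share of readers that passed, 25%, was below the 33.0% of all tested genes. The Mbd3 call (limma adjusted p = 0.0428) was lost without WT library 1 (0.0854) or 3 (0.122) and without Prmt6-/- library 1 (0.139) or 2 (0.124). The Mbd4 call (limma adjusted p = 0.0449) was lost without WT library 1 (0.130) or 2 (0.105) and without Prmt6-/- library 1 (0.139), 2 (0.0719) or 3 (0.0684). With 1 library left out, 0 or 1 reader rose. Without the low-value filter 0 rose (adjusted p = 0.0612 for Mbd3 and 0.0662 for Mbd4), and in limma without trend 1 rose, with Mbd3 lost (0.0574). The reader Zbtb38 stood at 12.73 ± 0.14 in WT and 12.64 ± 0.22 in Prmt6-/- (SD, n = 3) and did not pass. In the base excision list, which follows oxidation by TET, 4 of 11 tested genes fell and 0 rose, with a median of -0.13. That share, 36.4%, was close to the 33.0% of all tested genes, and Neil2 was listed at 0. The endonuclease Apex1 fell by 0.50 (SE 0.0567, limma adjusted p = 0.000236), the polymerase Polb by 0.29 and Parp1 by 0.27. Without Prmt6-/- library 2 the list had 2 lower genes, as Parp1 (adjusted p = 0.0536) and Neil3 (0.0918) no longer passed. Neil3 was lost without any 1 of the other libraries but WT library 3, with adjusted p of 0.0608 and 0.118 without WT libraries 1 and 2 and of 0.0700 and 0.0786 without Prmt6-/- libraries 1 and 3. It was also lost after quantile normalization (-0.13, adjusted p = 0.136), after cyclic loess centring (0.0601) and without the low-value filter (0.0510). Tdg, the glycosylase that removes oxidized 5-methylcytosine, stood at 11.70 and 11.74 and did not pass.

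Among TET partners and ascorbate uptake genes, 2 of 6 tested genes rose and 0 fell, with a median of -0.06. That share, 33.3%, was the background, 33.0% of all tested genes, and Cxxc4 was below the low-value filter. Slc23a2, a transporter of ascorbate, a cofactor that supports TET activity, rose by 1.23 (SE 0.130, limma adjusted p = 0.000161), from 9.14, 8.93 and 9.22 in WT to 10.60, 10.33 and 10.06 in Prmt6-/-. Wt1, a transcription factor that recruits TET2, rose by 0.98 (SE 0.0591, limma adjusted p = 1.52e-05), from 5.24, 5.19 and 5.26 to 6.28, 6.21 and 6.16. Both genes had every Prmt6-/- library above every WT library. The glycosyltransferase Ogt, which binds TET proteins, stood at 10.97 and 10.88 and did not pass.

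Around 2-oxoglutarate, 3 of 24 genes rose and 8 fell (45.8% passed, against 33.0% of all tested genes), with a median of -0.04. This balance depended on the scaling, with 5 higher and 2 lower after quantile normalization and 5 of each after cyclic loess centring. The count of lower genes was 5, 5, 4, 5 and 5 without WT library 2, WT library 3 and Prmt6-/- libraries 1, 2 and 3. Adhfe1, a mitochondrial transhydrogenase that forms 2-hydroxyglutarate from 2-oxoglutarate, fell by 1.44 (SE 0.139, limma adjusted p = 0.000105), more than Idh2. Its values were 8.68, 8.54 and 8.49 in WT and 6.78, 7.23 and 7.38 in Prmt6-/-. Idh3g, a subunit of the NAD-dependent isocitrate dehydrogenase, fell by 0.42, and the serine pathway aminotransferase Psat1, which yields 2-oxoglutarate, rose by 0.30. The catalytic subunit Idh3a, singled out after its values were seen, stood at 7.57 ± 0.88 in WT and 8.78 ± 0.36 in Prmt6-/- (SD, n = 3). Its groups overlapped through WT library 3, at 8.56, and its call (difference 1.21, limma adjusted p = 0.0330) was lost without WT library 1 (0.111) or 2 (0.106), without Prmt6-/- library 2 (0.106) or 3 (0.0971), in limma without trend (0.0824) and in the authors' deposited table (adjusted p = 0.189). The 2-hydroxyglutarate dehydrogenase D2hgdh, also singled out afterwards, stood at 8.51 and 8.37 and did not pass.

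The methyl donor and folate list held 15 genes, of which 0 rose and 1 fell, with a median of 0.02. That was 6.67%, against 33.0% of all tested genes. Mat2b, the regulatory subunit of the enzyme that makes S-adenosylmethionine, fell by 0.27 (SE 0.0560, limma adjusted p = 0.00571). The catalytic subunit Mat2a stood at 12.23 ± 0.10 and 12.38 ± 0.11 (SD, n = 3) and did not pass. The count of lower genes was 2 without Prmt6-/- library 1, and 1 gene rose without WT library 3. After quantile normalization 3 genes of this list were higher, and after cyclic loess centring 2.

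Genes known to depend on DNA methylation for their silence or their allele choice were also listed. Of 12 germline genes 3 (Dazl, Mael and Sycp1) were listed at 0 in every library and 3 were above the low-value filter. Ddx4, a germ cell helicase, rose by 0.48 (SE 0.0749, limma adjusted p = 0.00128), from 5.53, 5.64 and 5.44 to 6.09, 5.92 and 6.05. Dpep3 stood near 3.64 and 3.79 and passed (limma adjusted p = 0.0165), a call lost without WT library 2 (0.0546) or Prmt6-/- library 1 (0.0536). Tex101 did not pass, so 66.7% of the 3 tested genes passed, against 33.0% of all tested genes, and 9 genes could not be tested. Of 15 imprinted genes H19, Meg3 and Kcnq1ot1 were not matched by symbol. Among the other 12 genes 2 rose and 0 fell, with a median of 0.02. The share that passed was 16.7%, below the background. Zim1 rose by 0.49 (SE 0.0680, limma adjusted p = 0.000749) and the adaptor Grb10 by 0.34, the latter lost without WT library 1 (adjusted p = 0.0515) or 2 (0.0507). The authors' deposited table lists larger changes for these low genes, 1.73 log2 units for Ddx4 and 1.27 for Zim1.

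**Figure D4:**
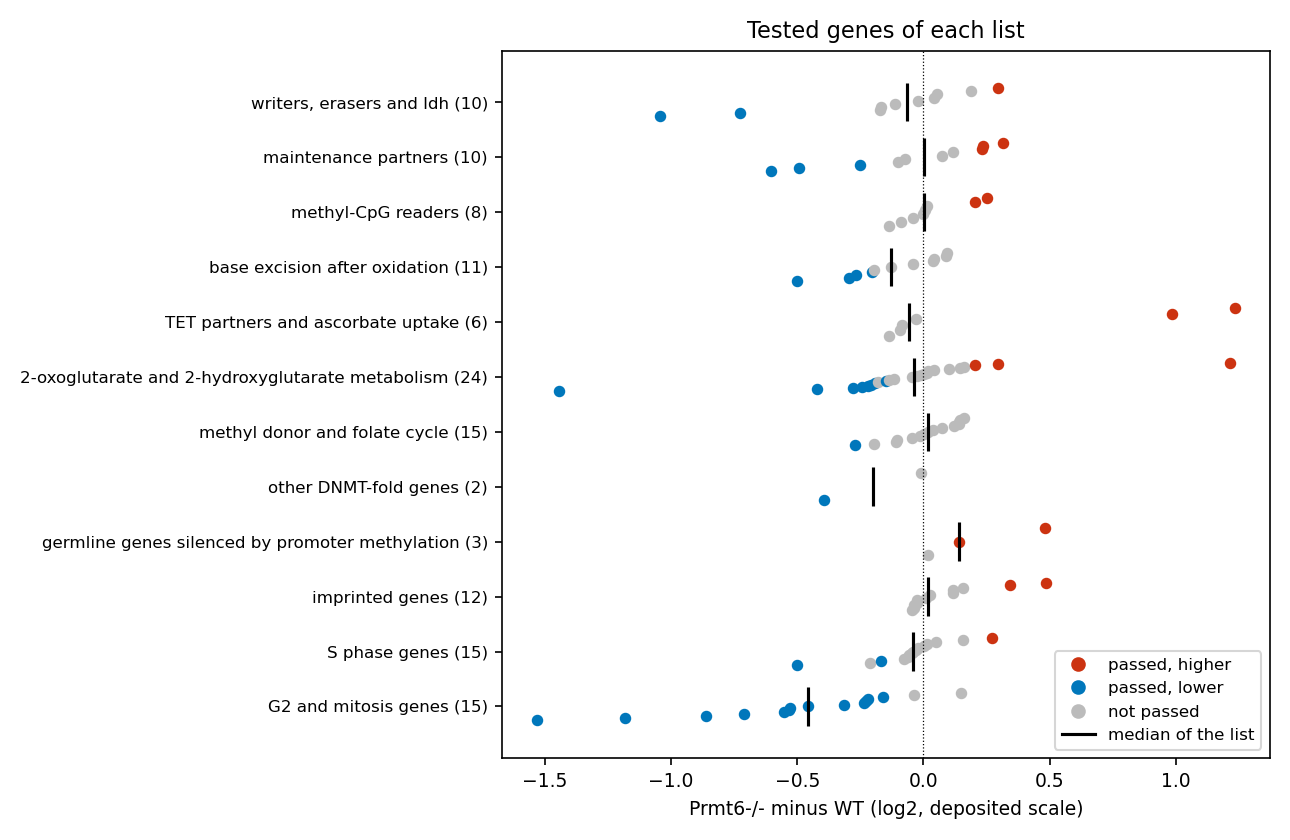
Difference between genotypes (Prmt6-/- minus WT, log2, horizontal axis) of each tested gene in the lists, with the number tested in parentheses and the median as a line; red and blue points passed at an adjusted p under 0.05. Idh2 and Dnmt3a are the blue points at -1.04 and -0.73 in the top line, and the highest and lowest points below them outside the cell cycle lists are Slc23a2 at 1.23 and Adhfe1 at -1.44.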

How the data were processed

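Poly(A) RNA of sorted L-GMP cells was sequenced in 3 WT and 3 Prmt6-/- leukaemia libraries, grouped by their titles. Trim Galore, kallisto and HOMER and the build GRCm38 are named without versions, per the submitters' processing notes. The deposited expression values are log2 values that the authors normalized between libraries from read counts with HOMER's differential expression command, per the file headers; the transformation, annotation and strand setting are not given in the sources used here. They run from -1.97 to 18.0, and library medians of genes above 0 lay between 4.65 and 4.69. Read depth is unknown, so no counting interval is given. The authors' deposited log2 fold changes and adjusted p-values come from a test the file does not name. Of 30038 rows 1 named no gene (0.00333%) and was left out, and 7932 genes were at 0 throughout.

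The low-value filter kept the 15454 genes that reached 1 in 3 or more libraries. Their log2 values entered limma 3.58.1 under R 4.3.3 (mean-variance trend, two-sided, Benjamini-Hochberg), with no pseudocount. Differences are Prmt6-/- minus WT. Linear ratios are 2 to the power of the difference. Single pairs of genes were compared by exact permutation with scipy 1.17.1. On simulated data with the 15454 genes and their spread, the test found 38% of 50 genes planted with a log2 change of 0.25, 82% of 50 at 0.5, 98% of 50 at 1 and 100% of 50 at 2, while 11 of 15254 unchanged genes passed. Far fewer genes were changed in the simulation than the 5102 that passed in the data. The Benjamini-Hochberg adjustment was therefore stricter there, and these rates do not carry over to the data. Positions and lengths come from the basic set of GENCODE vM21 (GRCm38), matched by symbol for 93.8% of genes, and upstream windows from RefSeq (GRCm38.p6), matched for all 10 genes. The 10 genes and the pathway lists were chosen with earlier results of these data known. From each list, up to 3 genes with the smallest p among those that passed and up to 2 abundant ones that did not are named; other names were chosen after their values were seen. Alternatives were quantile and cyclic loess scaling, other filters, limma without trend, the replicate number as a block, the authors' deposited p-values and leaving out each library. Some genes of the lists are counted but not reported by name here.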

Additional observations from a re-analysis of the deposited data

How the results depend on the processing

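Dnmt3a, Dnmt3b and Idh2 passed with the same direction in all 12 refits, with adjusted p of 0.000105 to 0.000966 for Dnmt3a, 0.00619 to 0.0489 for Dnmt3b and 3.95e-05 to 0.000670 for Idh2, and in the authors' deposited table. The count of the 10 genes that passed was 3 or 4 when 1 library was left out, 4 in limma without trend and 3 in the other alternatives. Over all genes 3888 to 4598 passed when 1 library was left out, against 5102. Dnmt1 changed sign after quantile normalization (0.075), after cyclic loess centring (0.035) and without WT library 1 (0.0049), with a range of -0.049 to 0.0049 when 1 library was left out. Tet2 changed sign without WT library 3 (range -0.034 to 0.090) and Tet3 without WT library 1 (range -0.041 to 0.143). None of these 3 passed in any refit. Tet1 and Dpep3 were not tested with the stricter minimum of 5. Same-numbered WT and Prmt6-/- libraries deviated together weakly (r = 0.095, 0.073 and 0.172 across genes), and each library correlated best with its own number, a hint from the data and not from the design. With the replicate number as a block, 5074 genes and 3 of the 10 passed, and Mbd4 (adjusted p = 0.0709) and Got2 (0.0534) were lost. Unknown depth and the small differences of low genes on this scale limit what can be said of Tet1 and the germline and imprinted genes.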
